A study of Mus musculus with 51 samples.

Results

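Glycolysis, gluconeogenesis and the citrate cycle were followed through 39 genes, chosen by name from the core of these pathways: 2 glucose transporters, the glycolytic and gluconeogenic enzymes with their isozymes, the pyruvate dehydrogenase kinases and subunits, and the enzymes of the citrate cycle. Of the 39, 36 had an array probe set assigned to 1 gene and were tested among 18193 genes. Gpi1 and Eno1 had no probe set assigned to them alone and were not analysed here, and Gapdh had such probe sets only among the array's own controls, so its level is described but not tested.

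The samples were 43 replicates of sorted mouse bone marrow cells, hybridised on 51 Affymetrix arrays because most replicates of 1 population were run on 2 arrays. The wild-type mice gave 5 replicates of haematopoietic stem cells (HSC), 8 of common lymphoid progenitors (CLP), 5 of common myeloid progenitors (CMP) and 5 of granulocyte-macrophage progenitors (GMP). Mll-AF9 knock-in mice, which carry a leukaemia-associated fusion of Mll and AF9 as a knock-in allele, gave 5 replicates of HSC, 7 of CLP, 4 of CMP and 4 of GMP. The labels name no treatment for either genotype and give neither strain nor age. They do not say that replicates came from separate mice, so each p-value speaks only of sample-to-sample spread, part of which can be technical. The design asks which genes differ between Mll-AF9 and wild-type cells of the same type, and the populations can also be compared with each other.

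Glycolysis splits glucose into pyruvate in the cytosol. Gluconeogenesis runs the same path backwards, using its own enzymes at the irreversible steps, such as fructose-1,6-bisphosphatase (Fbp1, Fbp2). Pyruvate is either reduced to lactate by lactate dehydrogenase or carried into the mitochondrion, where pyruvate dehydrogenase feeds it into the citrate cycle. Blood stem cells are known for relying on glycolysis, and several enzymes of the path exist as isozymes whose balance differs between tissues.

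Promoter sequences of the members were read from RefSeq (GRCm38.p6), from 250 bases before to 50 bases after the annotated start, and 37 of the 39 members had an entry; Slc2a3 and Idh3a did not. The letters ACGTG, the core of the element bound by hypoxia-inducible factors and part of the longer E-box CACGTG bound by Myc-type factors, were searched on both strands, and a CACGTG also counts as ACGTG. At least 1 window of 19 of the 37 members (51.35%) held ACGTG, against 5886 of the 27025 genes counted (21.78%). Here and below, genes with an entry were counted except those of 1 chromosome, which was left out. Over single windows the shares were 26 of 55 (47.27%) for the members and 4435 of 21263 (20.86%) for protein-coding genes. Windows of close starts of a gene overlap, as in Ogdh and Aldoa, so the same letters can count more than once there. CACGTG was in the windows of 6 of the 37 members (16.22%) and of 8.09% of all genes. These are matches of letters, with no measurement of binding.

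The windows shown are those of Fbp1, the member whose level differed between genotypes, of its neighbour Fbp2, which encodes the other isozyme and stayed at background, and of Ldha, Pgk1 and Pgam1, enzymes of the lower glycolytic path that were higher in wild-type GMP than in HSC. Fbp1 and Fbp2 lie on the same strand with annotated starts 29882 bases apart. Capitals mark ACGTG on either strand, which reads CACGT when it lies on the other strand.
Fbp1, chr13:62888233-62888532, minus strand: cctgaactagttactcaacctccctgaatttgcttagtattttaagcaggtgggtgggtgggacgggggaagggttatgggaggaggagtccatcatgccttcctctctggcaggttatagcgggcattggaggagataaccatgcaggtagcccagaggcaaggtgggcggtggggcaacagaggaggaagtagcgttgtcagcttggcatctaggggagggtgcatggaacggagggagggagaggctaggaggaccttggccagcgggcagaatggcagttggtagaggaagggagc
Fbp2, chr13:62858351-62858650, minus strand: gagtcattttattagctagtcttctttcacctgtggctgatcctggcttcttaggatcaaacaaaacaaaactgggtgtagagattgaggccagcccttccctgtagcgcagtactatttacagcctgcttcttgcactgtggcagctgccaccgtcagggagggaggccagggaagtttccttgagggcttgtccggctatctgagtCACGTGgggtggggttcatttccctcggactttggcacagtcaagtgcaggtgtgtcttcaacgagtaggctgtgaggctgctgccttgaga
Ldha, chr7:46845554-46845853, plus strand: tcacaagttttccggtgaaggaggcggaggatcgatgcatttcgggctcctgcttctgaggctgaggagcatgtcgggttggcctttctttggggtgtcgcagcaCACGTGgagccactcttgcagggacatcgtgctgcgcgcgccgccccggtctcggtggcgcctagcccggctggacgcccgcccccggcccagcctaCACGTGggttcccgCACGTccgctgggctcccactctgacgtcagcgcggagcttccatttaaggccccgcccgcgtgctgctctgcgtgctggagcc
Pgk1, chrX:106186850-106187149, plus strand: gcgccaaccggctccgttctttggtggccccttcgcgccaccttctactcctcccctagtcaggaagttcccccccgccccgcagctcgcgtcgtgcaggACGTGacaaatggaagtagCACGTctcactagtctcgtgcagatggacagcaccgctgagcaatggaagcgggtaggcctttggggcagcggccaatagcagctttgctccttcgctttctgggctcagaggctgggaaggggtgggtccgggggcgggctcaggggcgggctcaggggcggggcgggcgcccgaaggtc
Pgam1, chr19:41911621-41911920, plus strand: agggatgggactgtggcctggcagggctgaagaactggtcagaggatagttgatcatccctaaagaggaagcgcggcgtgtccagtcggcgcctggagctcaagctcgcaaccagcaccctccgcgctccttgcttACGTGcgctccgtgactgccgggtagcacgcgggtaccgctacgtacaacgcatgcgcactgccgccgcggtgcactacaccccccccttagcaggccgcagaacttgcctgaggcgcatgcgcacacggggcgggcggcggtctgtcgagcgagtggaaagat
The Fbp1 window held no ACGTG, and that of Fbp2 held 1 CACGTG. The Ldha window held 2 CACGTG and 1 further ACGTG, and a later annotated start of Ldha held none. The Pgk1 window held 2 ACGTG and that of Pgam1 held 1. Tpi1, of the same path and also called higher in wild-type GMP than in HSC, is not shown, and its window held none.

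Levels below are log2 of the deposited RMA intensity (RMA, robust multi-array averaging, is a background-corrected and normalised probe-set value), for 1 probe set per gene. They compare samples for the same gene and do not rank genes against each other. A level under 4.62, the 95th percentile of 115 receptor and keratin-associated genes not used in blood, is called background. Of the 36 tested members, 33 had a mean above it in at least 1 of the 8 groups, and Eno2, Fbp2 and Pdk2 did not; no member was filtered out. A call means an adjusted p below 0.05 in limma with Benjamini-Hochberg adjustment over all 18193 genes.

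Markers separated the samples titled GMP and CMP, and those titled HSC and CLP less fully. The mean level of 9 HSC markers ranged from 7.95 to 8.33 in wild-type HSC and from 7.23 to 8.46 in wild-type CLP. That of 9 CLP markers ranged from 7.21 to 9.29 in wild-type CLP and from 6.53 to 7.00 in HSC. Mast cell and basophil markers (4 measured) averaged 9.04 in wild-type CLP, 7.25 in HSC, 6.80 in GMP and 5.39 in CMP. The mean level of 7 GMP markers was 11.98 in wild-type GMP and 7.89 in CMP, and that of 9 CMP and erythroid-megakaryocyte markers was 9.89 in CMP and 5.97 in GMP. For 8 samples titled CLP (wild-type replicate 1 and all 7 of Mll-AF9) another label names sorted CMP; titles were followed, and the 9 CLP markers averaged 7.62 in Mll-AF9 CLP, 5.05 in Mll-AF9 CMP and 8.72 in wild-type CLP. Between the CLP genotypes 1 of the 9 was called, lower in Mll-AF9, and the part of this shift in the CLP genotype comparisons was not tested. Of 7 red-cell markers listed only 3 were measured, and these 3 were below background in every group. The CMP values were deposited with more decimals than the others and may have been normalised apart, so a contrast of CMP with another population cannot be told apart from that difference. Both genotypes of CMP carry the extra decimals. Y-linked levels separated male-like from female-like samples: all Mll-AF9 replicates were low, and among the wild type the low replicates were 3 of 5 for HSC, 2 of 8 for CLP, 2 of 5 for CMP and 2 of 5 for GMP. In these bulk samples, fewer cells of a type and less RNA per cell cannot be told apart.

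**Figure D1:**
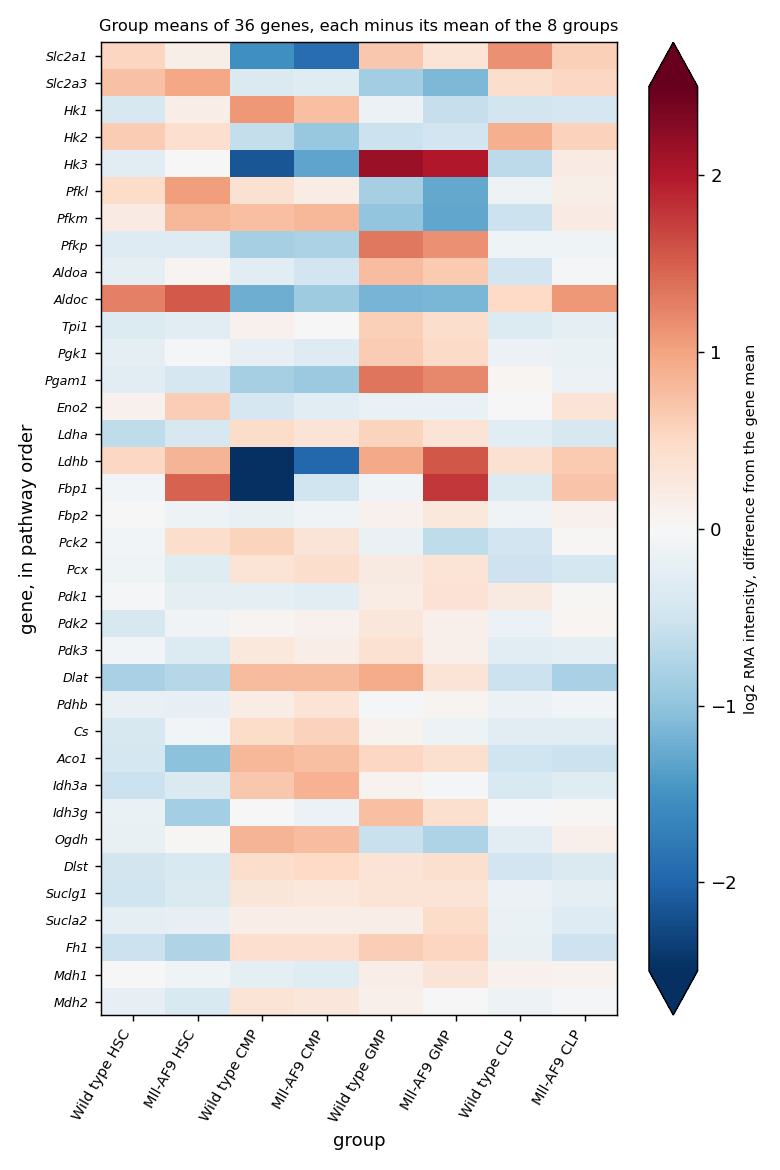
Mean log2 RMA intensity of each of the 36 tested genes in the 8 groups (columns), minus the gene's mean of the 8 groups, with genes in pathway order (rows); red is above and blue below the gene's own mean, and colours saturate at the ends of the scale. The wild-type and Mll-AF9 columns of a population look alike for most genes, whereas Fbp1 is higher in Mll-AF9 in all 4 populations.

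Between genotypes, 1 of the 36 genes was called. Fbp1 rose in Mll-AF9 GMP by 1.85 ± 0.36 (SE) and in Mll-AF9 CMP by 2.43 ± 0.25 (SE), and no member was called lower in any population. In GMP 1 of 36 was called higher and 0 lower, where 0.17% and 0.0934% of all genes were called. In CMP the counts were 1 higher and 0 lower, against 0.242% and 0.176% of all genes. In CLP no member was called, against 0.203% of all genes higher and 0.143% lower, and in HSC none, against 0.022% and 0.0275%. At an unadjusted limma p under 0.05 the members numbered 5 in HSC, 4 in CLP, 6 in CMP and 6 in GMP, where 6.38%, 9.29%, 6.75% and 9.63% of all genes were.

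The median difference of the 36 genes, Mll-AF9 minus wild type, was 0.13 in HSC, 0.08 in CLP, -0.02 in CMP and -0.13 in GMP. Over all genes it was 0.01, 0.06, 0.002 and -0.02 in the same order.

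Fbp1 encodes the fructose-1,6-bisphosphatase known from liver, kidney and monocytes, which removes a phosphate from fructose-1,6-bisphosphate and so opposes phosphofructokinase. In wild-type CMP its 5 replicates read 4.64, 4.62, 3.86, 4.34 and 4.84, at or about the background level. The 4 Mll-AF9 CMP replicates read 6.24, 6.83, 6.84 and 7.63, and every one lay above every wild-type replicate. The means were 4.46 and 6.88 (adjusted p = 0.000231, limma), and because the wild-type mean is below background the change is given as at least 4.65-fold. In the single model of all 8 groups, which pools the spread over populations, this call was lost (2.43, adjusted p = 0.0692).

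In GMP the wild-type replicates of Fbp1 read 8.51, 6.69, 6.46, 7.77 and 7.05. The Mll-AF9 replicates read 8.57, 9.02, 9.16 and 9.82, so the lowest of them was just above the highest wild-type value. The means were 7.30 and 9.14, a 3.60-fold difference (adjusted p = 0.0489, limma). That call is close to its threshold: it was lost on leaving out wild-type GMP replicate 2, 3, 4 or 5 or any 1 of the 4 Mll-AF9 GMP replicates (adjusted p up to 0.211), while without wild-type GMP replicate 1 the difference was 2.15 (adjusted p = 0.000474). With the Y-linked level as a covariate it was 1.68 (adjusted p = 0.354).

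In HSC, Fbp1 read 7.01, 8.17, 7.07, 7.08 and 7.29 in the wild type and 8.22, 8.32, 8.80, 8.11 and 10.82 in Mll-AF9. Here 1 wild-type replicate lay within the Mll-AF9 range, and the difference of 1.53 ± 0.45 (SE) was not called (adjusted p = 0.447, limma). In CLP the lowest, median and highest values were 5.15, 7.04 and 9.56 in the wild type and 7.02, 8.07 and 8.63 in Mll-AF9. The groups overlapped widely and the difference of 1.05 ± 0.46 (SE) was not called (adjusted p = 0.501, limma).

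Fbp1 thus had a positive difference in all 4 populations, with calls in GMP and CMP in the fits within each population and in neither in the model of 8 groups. Its genotype effect was not shown to differ between populations: in the widest pair, CMP against CLP, the effects differed by 1.37 ± 0.67 (SE, adjusted p = 0.998, limma interaction). Against only the female-like wild-type replicates, a comparison chosen after seeing the data, the difference was 1.73 in GMP (adjusted p = 0.0113), 2.30 in CMP (adjusted p = 0.0271), 1.85 in CLP (adjusted p = 0.737) and 1.71 in HSC (adjusted p = 0.764).

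Of the 10 monocyte and macrophage markers measured, 1 was called higher in Mll-AF9 GMP and 1 lower in Mll-AF9 CMP. Their mean level ranged from 6.24 to 6.48 in wild-type GMP and from 6.37 to 6.69 in Mll-AF9 GMP. It ranged from 4.54 to 5.08 in wild-type CMP and from 4.39 to 4.74 in Mll-AF9 CMP, where Fbp1 was higher. The mean level of 9 HSC markers was higher in Mll-AF9 too. It ranged from 5.93 to 6.53 in wild-type CMP and from 6.75 to 7.26 in Mll-AF9 CMP. In GMP the ranges were 5.22 to 5.44 and 5.72 to 6.05, in HSC 7.95 to 8.33 and 8.41 to 9.19, and in CLP 7.23 to 8.46 and 7.75 to 8.89, so only the CLP genotypes overlapped. Of these 9 markers 2 were called higher in Mll-AF9 GMP, 1 in CMP, 1 in CLP and none in HSC, and none lower. Their median difference was smaller in GMP (0.10) and CLP (0.16) than in CMP (0.57) and HSC (0.46). The part of either marker list in the Fbp1 result was not tested.

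Fbp2, the isozyme best known from muscle, stayed below background in all 8 groups, with means from 3.78 to 4.23. Its genotype differences were -0.13 in HSC, 0.20 in CLP, 0.11 in CMP and 0.16 in GMP, and none was called (adjusted p from 0.779 to 0.948, limma). Skeletal muscle markers were near background too, with a mean level of 5 markers between 3.86 and 4.11 in the 8 groups.

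**Figure D2:**
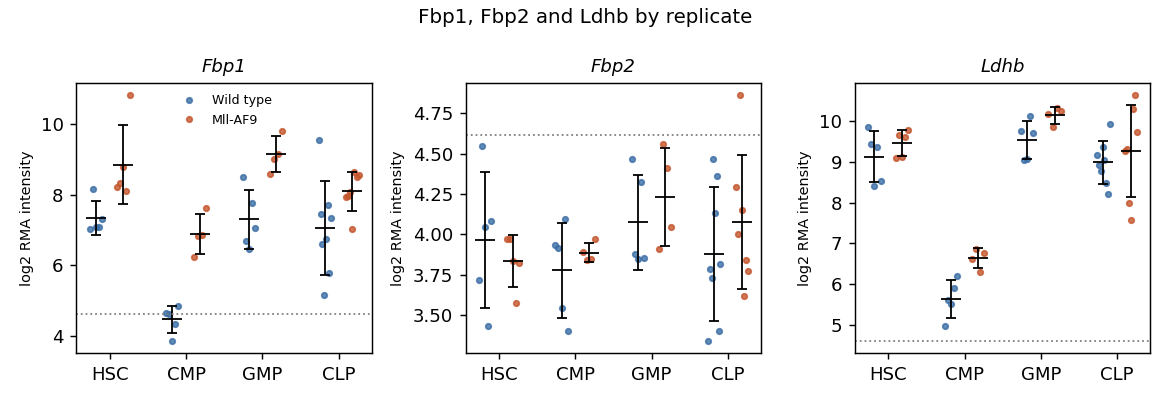
Log2 RMA intensity of Fbp1, Fbp2 and Ldhb in each replicate (points), by population and genotype; black bars give the mean and SD, and the dotted line is the background level of 4.62. Mll-AF9 points of Fbp1 lie above all wild-type points in GMP and CMP, Fbp2 lies at background throughout, and Ldhb is lowest in CMP.

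The other genotype differences did not reach the threshold. Ldhb, the lactate dehydrogenase subunit of heart and other oxidative tissues, came nearest. In CMP its wild-type replicates read 4.96, 5.62, 5.52, 5.90 and 6.20, and the Mll-AF9 replicates read 6.63, 6.86, 6.30 and 6.76. The groups did not overlap, and the difference was 1.00 ± 0.21 (SE, adjusted p = 0.0638, limma). It passed the threshold without wild-type CMP replicate 5 (1.14, adjusted p = 0.0276) and without Mll-AF9 CMP replicate 3 (1.11, adjusted p = 0.033). Against only the female-like wild-type CMP replicates it was 0.59 (adjusted p = 0.828), and wild-type CMP itself averaged 6.05 in female-like and 5.36 in male-like replicates.

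In GMP, Ldhb read 9.76, 9.06, 9.06, 10.12 and 9.71 in the wild type and 10.18, 9.85, 10.33 and 10.25 in Mll-AF9. These groups overlapped, and the difference was 0.61 ± 0.21 (SE, adjusted p = 0.353, limma). In HSC it was 0.33 ± 0.28 and in CLP 0.28 ± 0.38 (SE), and the CLP value turned to -0.38 against female-like wild-type replicates. Ldha, the subunit dominant in glycolytic tissues, differed by 0.25 in HSC and by -0.12 in both CLP and CMP, and by -0.22 in GMP, with no call.

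Hk3, the hexokinase isozyme of white blood cells, had positive differences in CMP and CLP that were not called. In CMP it read 6.61, 7.41, 6.50, 6.41 and 6.81 in the wild type and 7.52, 7.87, 7.65 and 7.19 in Mll-AF9, a difference of 0.80 ± 0.20 (SE, adjusted p = 0.139, limma). Only wild-type CMP replicate 2 lay within the Mll-AF9 range, and without it the difference was 0.97 (adjusted p = 0.0207). In CLP the lowest, median and highest values were 7.57, 8.11 and 9.19 in the wild type and 8.23, 9.02 and 9.71 in Mll-AF9. The difference was 0.86 ± 0.27 (SE, adjusted p = 0.27, limma), and a dimmer probe set of Hk3 gave 1.12 ± 0.20 (SE, adjusted p = 0.0163 over all named probe sets). Of 8 mature neutrophil markers none was called between the CLP genotypes; their mean ranged from 3.77 to 9.39 in the wild type and from 5.77 to 10.15 in Mll-AF9, and their part in the result was not tested. Pfkm, described further below, also had a positive difference in CLP, 0.74 ± 0.29 (SE, adjusted p = 0.417, limma), with lowest, median and highest values of 5.25, 6.37 and 7.57 in the wild type and 6.65, 7.28 and 7.64 in Mll-AF9.

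A sign of RNA quality differed between the CLP genotypes before adjustment, and not after it. The 3' minus 5' difference of the array controls (larger for shorter RNA or label) averaged 3.69 ± 0.21 in wild-type CLP and 4.18 ± 0.53 (SD) in Mll-AF9 CLP (two-sided exact permutation p = 0.0256, adjusted over the 4 populations 0.103). It was largest in Mll-AF9 CLP replicates 4 (4.93) and 1 (4.87). With this difference as a covariate the CLP difference was 1.34 for Hk3 (adjusted p = 0.053, limma), 1.32 for Fbp1 and -0.42 for Slc2a1. In the other populations the genotype means were 3.48 and 3.01 in GMP, 3.19 and 3.33 in CMP, and 3.63 and 3.56 in HSC, wild type first.

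Slc2a1, the widely used glucose transporter, had a negative difference in every population: -0.55 ± 0.23 in CLP, -0.37 ± 0.26 in HSC, -0.38 ± 0.20 in CMP and -0.32 ± 0.25 (SE) in GMP. None was called (adjusted p from 0.453 to 0.824, limma), and the replicates overlapped in all 4. Hk2, the inducible hexokinase, differed by -0.35 ± 0.15 (SE) in CMP (adjusted p = 0.675), from 6.41, 6.58, 6.03, 6.14 and 6.11 to 6.06, 5.70, 6.15 and 5.68. The groups overlapped, with 2 Mll-AF9 replicates below every wild-type one.

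Among mitochondrial enzymes, Dlat, the acetyltransferase core of pyruvate dehydrogenase, read 8.93, 8.45, 8.85, 8.63 and 8.58 in wild-type GMP and 7.78, 8.38, 7.95 and 8.27 in Mll-AF9 GMP. The replicates did not overlap, and the difference was -0.59 ± 0.18 (SE, adjusted p = 0.275, limma). Another Dlat probe set gave 0.38 ± 0.19 (SE), so the probe sets disagreed in sign. Pck2, the mitochondrial phosphoenolpyruvate carboxykinase, read 7.70, 7.42, 7.50, 7.54 and 7.82 in wild-type GMP and 7.27, 6.77, 7.04 and 7.39 in Mll-AF9 GMP. It did not overlap either, and differed by -0.48 ± 0.18 (SE, adjusted p = 0.4).

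In HSC the widest positive difference beside Fbp1 was that of Pfkm, and the widest negative ones were those of Idh3g and Aco1. Idh3g, a regulatory subunit of NAD-dependent isocitrate dehydrogenase, read 11.04, 11.53, 10.57, 10.88 and 11.14 in the wild type and 10.24, 10.12, 10.30, 9.93 and 11.20 in Mll-AF9. Only the last Mll-AF9 value lay among the wild-type values, and the difference was -0.68 ± 0.24 (SE, adjusted p = 0.629, limma). Pfkm, the muscle-type phosphofructokinase, read 6.85, 6.35, 7.57, 7.25 and 7.67 against 7.94, 7.76, 7.72, 8.21 and 7.21 in Mll-AF9 HSC, a difference of 0.63 ± 0.29 (SE, adjusted p = 0.779). Aco1, the cytosolic aconitase, which also acts as an iron-sensing protein, differed by -0.59 ± 0.43 (SE, adjusted p = 0.837), with 1 Mll-AF9 replicate at 5.59 and the others from 6.81 to 7.96. In CLP, where Slc2a1 had the widest negative difference, Fh1, fumarate hydratase, differed by -0.33 ± 0.20 (SE, adjusted p = 0.633).

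Over all genes, replicates of the genotypes did not overlap for 1.23% in HSC, 0.253% in CLP, 2.68% in CMP and 4.34% in GMP. Among the 36 members they did not overlap for Fbp1, Pfkm, Pck2 and Dlat in GMP, with the last 3 lower in Mll-AF9, nor for Fbp1, Ldhb, Aldoc and Pgk1 in CMP, with Pgk1 lower. No member was free of overlap in CLP or HSC. Pfkm differed by -0.33 ± 0.15 in GMP, and Aldoc and Pgk1 by 0.33 ± 0.11 and -0.13 ± 0.08 in CMP (SE), with no call; Aldoc was below background in both genotypes there.

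**Figure D3:**
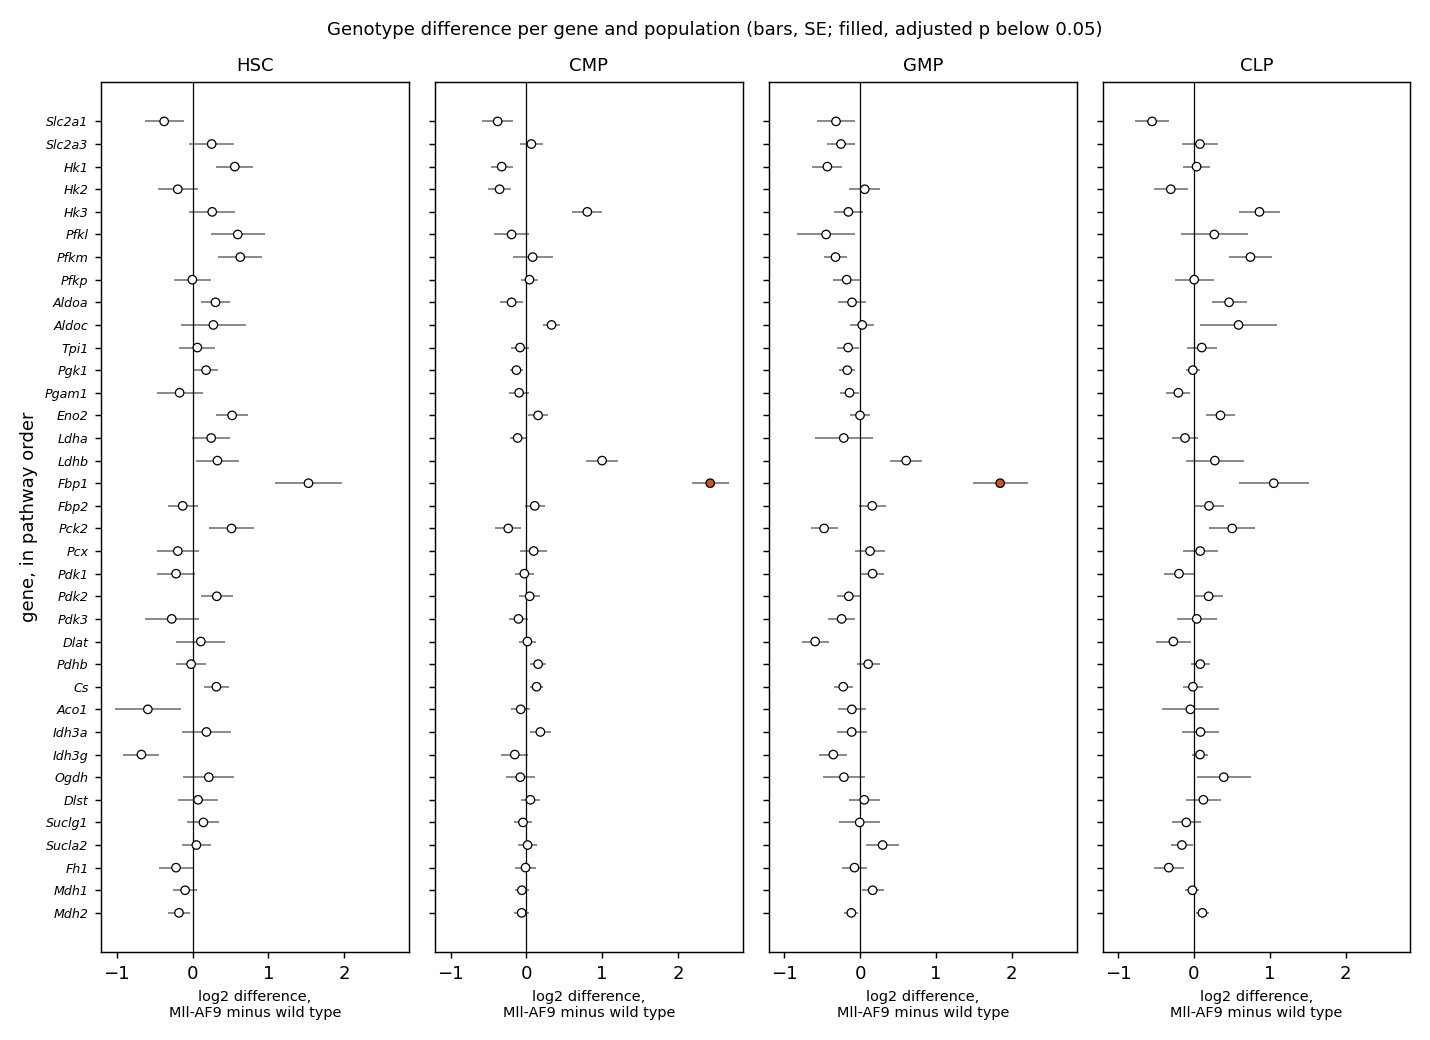
Log2 difference, Mll-AF9 minus wild type (horizontal axis), of each of the 36 genes (rows, in pathway order) in the 4 populations (panels); points are limma estimates, bars their SE, and filled points have an adjusted p below 0.05. Fbp1 in CMP (2.43) and GMP (1.85) are the filled points, and the other genes lie between -0.68 and 1.00.

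No genotype effect of a member differed between populations by the limma interaction test. Over all genes 0.044% were called for GMP against HSC, 0% for CMP against HSC, 0.143% for CLP against HSC, 0.066% for GMP against CLP, 0% for GMP against CMP and 0.066% for CMP against CLP. At an unadjusted p under 0.05 the members numbered 5, 1, 3, 3, 1 and 2 in that order, where 7.88%, 2.91%, 9.6%, 10.1%, 1.84% and 4.21% of all genes were.

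Far more members were called between populations than between genotypes, apart from CLP against HSC, and the same held over all genes. In wild-type GMP against HSC, 15 of 36 were higher and 5 lower, where 24.6% and 13.5% of all genes were called; the median difference was 0.42 for the members and 0.14 for all genes. In CMP against HSC 12 were higher and 8 lower, against 11.7% and 10.7% of all genes. In GMP against CLP 18 were higher and 3 lower, against 28.3% and 14.7%. In GMP against CMP 10 were higher and 5 lower, against 20.3% and 11.5%, and the 5 lower became 3 without wild-type GMP replicate 4, without wild-type CMP replicate 4 or without wild-type CMP replicate 5, and 9 in a fit of these 2 groups alone. In CMP against CLP 14 were higher and 10 lower, against 11.9% and 11.8%.

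Wild-type CLP and HSC were not told apart by any member. No member was called, where 0.264% of all genes were higher and 0.055% lower, and 2 members had an unadjusted limma p under 0.05, as had 9.58% of all genes. The medians were 0.02 for the members and -0.01 for all genes. All these wild-type contrasts share groups, so they are not independent of each other.

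Among wild-type samples the 3' minus 5' control difference was largest in GMP replicate 1, at 4.70. Its part in the population contrasts was not tested.

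Glucose entry divided the populations by transporter. Slc2a1 read 6.16, 6.17, 5.38, 5.61 and 6.05 in wild-type CMP, against 8.58, 7.49, 7.74, 8.27 and 7.58 in HSC and 8.96, 7.44, 7.71, 8.18 and 8.08 in GMP. CMP lay below every other wild-type sample, with a difference of -2.06 ± 0.26 (SE) from HSC (adjusted p = 6.29e-08, limma) and -2.67 ± 0.24 (SE) from CLP (adjusted p = 5.72e-12). Slc2a3, the high-affinity transporter, averaged 9.56 ± 0.57 in HSC, 9.28 ± 0.45 in CLP, 8.48 ± 0.21 in CMP and 7.97 ± 0.18 (SD) in GMP. The difference of GMP from HSC was -1.60 ± 0.26 (SE, adjusted p = 5.51e-06), and CLP and HSC did not differ beyond their spread.

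Hexokinases, which phosphorylate glucose on entry, were split between the populations. Hk3 read 11.69, 10.90, 10.47, 11.24 and 10.92 in wild-type GMP, above every sample of the other populations. It was higher in GMP than in HSC by 2.43 ± 0.29 (SE, adjusted p = 8.98e-09, limma), than in CLP by 2.82 ± 0.26 (SE, adjusted p = 1.33e-11) and than in CMP by 4.30 ± 0.29 (SE, adjusted p = 2.86e-15). In CMP it was the lowest, at 6.75 ± 0.40 (SD).

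Hk1, the hexokinase found in most tissues, had the opposite order for the myeloid pair. It read 9.95, 9.59, 9.77, 9.56 and 9.89 in wild-type CMP and between 7.79 and 9.04 in all wild-type GMP, CLP and HSC samples. The difference of CMP from HSC was 1.47 ± 0.20 (SE, adjusted p = 1.65e-07, limma). Hk2 averaged 7.73 ± 0.46 in CLP and 7.46 ± 0.40 in HSC but 6.31 ± 0.39 in GMP and 6.25 ± 0.23 (SD) in CMP. The difference of GMP from HSC was -1.16 ± 0.23 (SE, adjusted p = 0.000113).

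Phosphofructokinase, which commits sugar to glycolysis, is built from Pfkl, Pfkm and Pfkp subunits. Pfkp, the platelet type, read 8.88, 8.48, 9.05, 8.38 and 8.80 in wild-type GMP, and 6.98, 7.00, 6.58, 7.24 and 7.57 in HSC. The groups were apart, by 1.64 ± 0.24 (SE, adjusted p = 5.84e-07, limma), and CMP was the lowest population at 6.57 ± 0.10 (SD). Pfkm went the other way, at 5.95 ± 0.14 in GMP, 6.38 ± 0.72 in CLP, 7.14 ± 0.55 in HSC and 7.68 ± 0.35 (SD) in CMP. The difference of GMP from CMP was -1.73 ± 0.30 (SE, adjusted p = 1.2e-05).

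Pfkl, the liver type, was called lower in GMP than in HSC, with a difference of -1.28 ± 0.47 (SE, adjusted p = 0.0269, limma), and than in CMP, with -1.22 ± 0.47 (SE, adjusted p = 0.041). Both calls were weak. Its next-brightest probe set differed by only -0.02 and -0.14, and the calls were lost without wild-type GMP replicate 1 (-0.95, adjusted p = 0.119, and -0.89, adjusted p = 0.17). They were also lost without wild-type HSC replicate 3 (-1.13) or 5 (-1.07) for HSC, and without wild-type GMP replicate 4 (-1.21) or wild-type CMP replicate 1 (-1.16), 2 (-1.20), 4 (-1.28) or 5 (-1.13) for CMP.

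**Figure D4:**
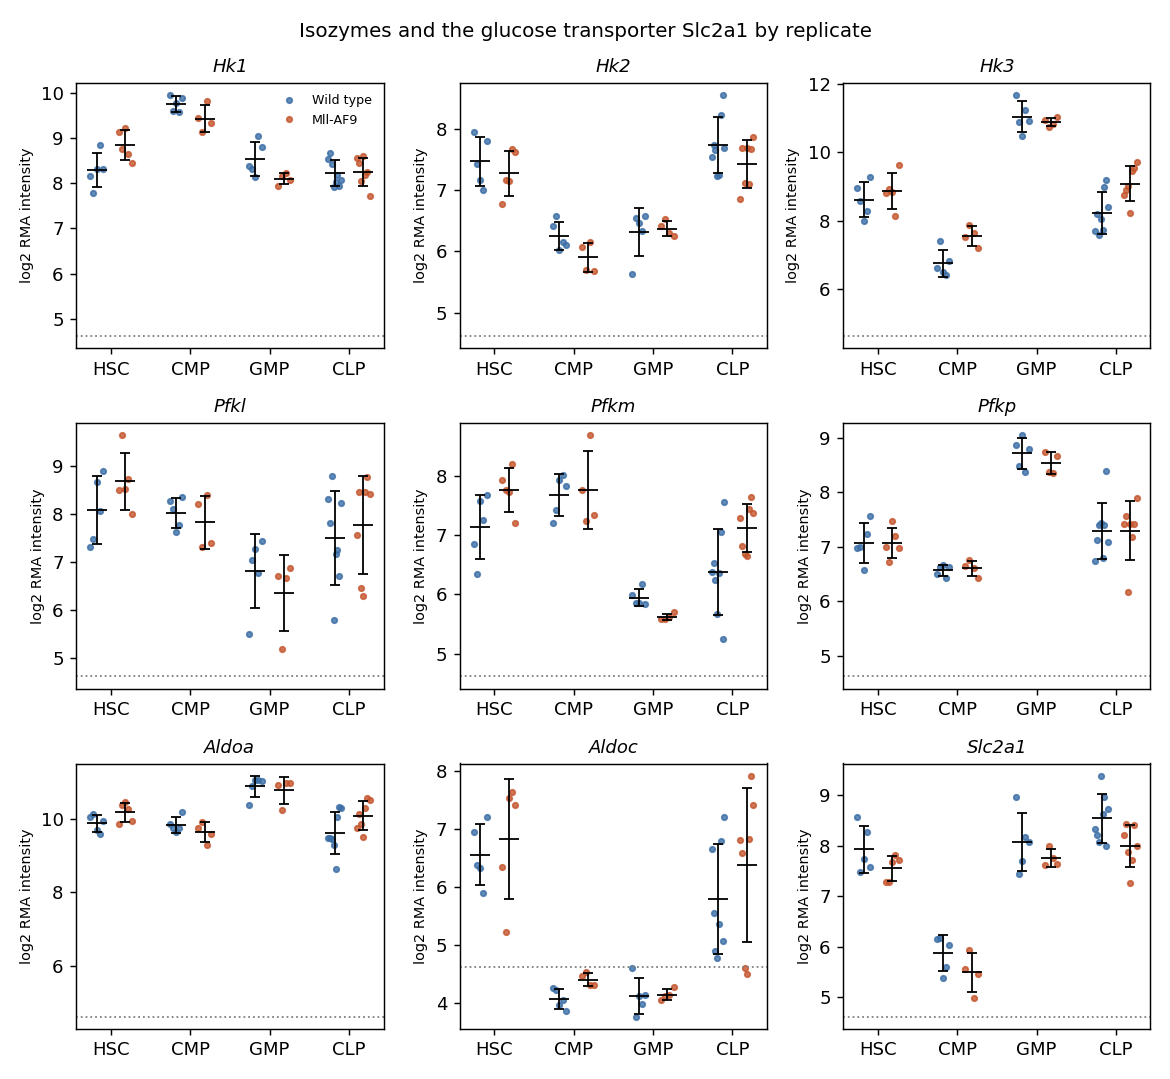
Log2 RMA intensity of hexokinases, phosphofructokinases, aldolases and Slc2a1 in each replicate (points), by population and genotype; black bars give the mean and SD, the dotted line marks background (4.62), and each panel has its own vertical scale. Hk3 and Pfkp are highest in GMP, Hk1 in CMP, and Aldoc is above background only in HSC and CLP.

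The aldolases cut the sugar in 2. Aldoa, the main form, was higher in wild-type GMP (10.87 ± 0.29) than in HSC (9.87 ± 0.23, SD) by 1.00 ± 0.23 (SE, adjusted p = 0.00045, limma). Aldoc, known best from brain, read 6.95, 6.37, 6.33, 5.90 and 7.21 in HSC and lay below background in all wild-type GMP and CMP replicates (3.76 to 4.60). HSC was at least 3.84-fold higher than either (adjusted p = 6.49e-05 for GMP and 8.18e-05 for CMP). In CLP it spread from 4.78 to 7.21 and was at least 2.26-fold higher than in GMP (adjusted p = 0.00147).

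Of the enzymes from triose to pyruvate, Tpi1, Pgk1 and Pgam1 were called higher in wild-type GMP than in HSC. Pgam1, phosphoglycerate mutase, read 10.43, 10.44, 10.51, 10.15 and 10.34 in wild-type GMP and 8.35, 8.41, 8.94, 8.51 and 9.71 in HSC. The samples did not overlap, and GMP was higher by 1.59 ± 0.20 (SE, adjusted p = 3.74e-08, limma). In CMP it read 8.13, 8.38, 8.18, 8.11 and 8.24, and GMP was higher than CMP by 2.17 ± 0.20 (SE, adjusted p = 1.93e-11). Pgk1, phosphoglycerate kinase, was higher in GMP than in HSC by 0.87 ± 0.11 (SE, adjusted p = 3.65e-08) and Tpi1, triosephosphate isomerase, by 0.94 ± 0.20 (SE, adjusted p = 0.000312). Eno2, the neuronal enolase, was below background in all 8 groups, with means from 2.85 to 3.90.

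Gapdh, read from the array's 3' control, had the same place in the order. It averaged 12.51 ± 0.44 in wild-type GMP, 11.93 ± 0.32 in CLP, 11.91 ± 0.42 in HSC and 11.78 ± 0.16 (SD) in CMP. In Mll-AF9 the means were 12.28 ± 0.40, 11.88 ± 0.22, 11.85 ± 0.13 and 11.73 ± 0.28 (SD) in the same order. The control was not part of the fit, so these are levels without a test.

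Lactate dehydrogenase subunits parted in CMP. Ldha was higher than in HSC both in GMP, by 1.19 ± 0.28 (SE, adjusted p = 0.00064, limma), and in CMP, by 1.10 ± 0.28 (SE, adjusted p = 0.00229). Its wild-type GMP replicates spread from 8.72 to 11.40 and overlapped those of HSC, from 8.70 to 10.16. Neither Ldha contrast was called in Mll-AF9. Ldhb averaged 5.64 ± 0.46 (SD) in wild-type CMP, below every sample of the other populations. The difference of CMP from HSC was -3.49 ± 0.37 (SE, adjusted p = 1.08e-09), and GMP was higher than CMP by 3.91 ± 0.37 (SE, adjusted p = 2.27e-11), while GMP, HSC and CLP did not differ by a called amount. All 3 other Ldhb probe sets were also lower in CMP than in HSC, with differences from -3.04 to -2.15.

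Fbp1, the gluconeogenic counterpart, was also low in wild-type CMP. HSC averaged 7.33, GMP 7.30 and CLP 7.04, and each was at least 5.19-fold above CMP (adjusted p of 2.22e-05, 1.88e-05 and 1.81e-05, limma). In Mll-AF9 cells CMP remained the lowest, with a difference of -1.97 ± 0.53 from HSC (SE, adjusted p = 0.0049), and its difference from CLP, -1.21 ± 0.50 (SE), was not called (adjusted p = 0.081). Pck2 was higher in CMP than in CLP by 1.03 ± 0.27 (SE, adjusted p = 0.00332). Pcx, pyruvate carboxylase, which refills the citrate cycle, averaged 4.75 to 5.63 across wild-type populations, near background, and was higher than in CLP in both GMP (0.74) and CMP (0.87).

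At the gate to the mitochondrion, Dlat was the member with the widest difference. It read 6.58, 6.71, 6.89, 7.03 and 7.46 in wild-type HSC, between 8.45 and 8.93 in GMP and between 8.46 and 8.61 in CMP. GMP was higher than HSC by 1.75 ± 0.25 (SE, adjusted p = 3.98e-07, limma) and CMP by 1.60 ± 0.25 (SE, adjusted p = 3.6e-06). A second Dlat probe set gave 1.86 and 1.69, and another gave 0.13 and 0.84. Pdhb, another subunit of the complex, was higher in CMP than in HSC by 0.37 ± 0.14 (SE, adjusted p = 0.0476).

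The kinases that switch the complex off moved little. Pdk1 averaged between 9.47 and 9.96 in the wild-type populations with no call, and Pdk3 was higher in GMP than in CLP by 0.66 ± 0.26 (SE, adjusted p = 0.0343, limma). Pdk2 was called higher in GMP than in HSC and CLP, but its mean was below background in all 8 groups.

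Citrate cycle genes were mostly higher in the myeloid progenitors than in HSC. In CMP against HSC the calls covered Cs, Aco1, Idh3a, Ogdh, Dlst, Suclg1, Fh1 and Mdh2, all higher, and in GMP against HSC they covered Cs, Idh3g, Dlst, Suclg1, Fh1 and Mdh2, all higher. That is 8 and 6 of the 11 cycle enzymes measured, where 11.7% and 24.6% of all genes were higher. The 11 include Aco1 and Mdh1, which encode cytosolic forms. Sucla2, a subunit of succinyl-CoA synthetase, and Mdh1, the cytosolic malate dehydrogenase, were not called in either contrast.

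Within the cycle, Cs, citrate synthase, rose from 10.55 ± 0.26 in HSC to 11.39 ± 0.12 (SD) in CMP (adjusted p = 3.6e-06, limma). Idh3a, the catalytic isocitrate dehydrogenase subunit, read 9.77, 9.58, 9.69, 9.88 and 9.71 in wild-type CMP and 7.47, 8.68, 8.85, 8.49 and 9.06 in HSC. Every CMP value was above every HSC value, and the difference was 1.22 ± 0.27 (SE, adjusted p = 0.000639); the probe set with the largest variance gave 0.21 with no call. Aco1 was higher in CMP than in HSC by 1.26 ± 0.39 (SE, adjusted p = 0.0147), a call lost without wild-type HSC replicate 3 (1.11) or 4 (1.05).

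Ogdh, a subunit of oxoglutarate dehydrogenase, was the exception in GMP. It read 7.20, 7.58, 7.46, 7.63 and 7.74 in wild-type CMP and 5.15, 6.14, 6.54, 6.43 and 6.36 in GMP. All CMP values lay above those of GMP, and the difference of GMP from CMP was -1.40 ± 0.37 (SE, adjusted p = 0.00304, limma). Dlst, its partner in the same complex, was higher than in HSC in both CMP (0.90) and GMP (0.80). Fh1 was higher than in HSC by 1.16 ± 0.21 in GMP (adjusted p = 1.97e-05) and by 0.97 ± 0.21 in CMP (SE, adjusted p = 0.000386).

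Of the called differences between wild-type populations, most had the same sign in further probe sets of the gene. Only further probe sets with a mean over all arrays above background were counted, and dimmer ones were left out. In GMP against HSC all 21 such probe sets of 11 called members had the sign of the chosen one, and in CMP against HSC all 20 of 12. In GMP against CLP 18 of 20 did, with probe sets of Dlat and Dlst opposite. In GMP against CMP 18 of 20 did, with Cs and Pfkl opposite, and in CMP against CLP 22 of 23, with Dlst opposite.

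The same population contrasts were fitted in Mll-AF9 mice. In GMP against HSC 15 members were higher and 8 lower, against 20.4% and 12.5% of all genes. Of the 15 higher in the wild type, 11 were also called in Mll-AF9 (73.3% of each list), and Aldoa, Ldha, Pdk2 and Cs were not. Pdk1, Aco1, Sucla2 and Mdh1 were called higher in Mll-AF9 only. All 5 lower in the wild type were among the 8, and Hk1, Eno2 and Pck2 were called lower in Mll-AF9 only. In CMP against HSC 11 were higher and 8 lower, against 10.7% and 10.2%, with 9 and 7 shared. In GMP against CMP 9 were higher and 8 lower, against 13.6% and 8.62%, with 9 and 5 shared. In GMP against CLP 13 were higher and 6 lower, against 17.5% and 12.7%; of the 18 higher in the wild type 12 were shared, and Pdk2, Pdk3, Cs, Aco1, Idh3g and Mdh2 were not called. In CMP against CLP 12 were higher and 10 lower, against 8.77% and 11.6%, with 11 and 9 shared. In CLP against HSC Idh3g (0.88 ± 0.18) and Mdh2 (0.36 ± 0.10, SE) were higher and none lower, against 2.69% and 1.04% of all genes. No member was called in opposite directions in the 2 genotypes, and a call in only 1 of them is not a tested difference. Shared calls were not counted over all genes, so the shared counts have no share of all genes beside them.

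The other genes of these pathways, 113 measured genes in 9 lists, had no call in any of the 4 genotype comparisons by limma. At an unadjusted p under 0.05 the count was 8 in HSC (7.08% of the 113), 13 in CLP (11.5%), 9 in CMP (7.96%) and 15 in GMP (13.3%), near the 6.38%, 9.29%, 6.75% and 9.63% of all genes. In wild-type GMP against HSC 37 of the 113 were higher (32.7%, against 24.6% of all genes) and 11 lower (9.73%, against 13.5%). In CMP against HSC 22 were higher (19.5%, against 11.7%) and 12 lower (10.6%, against 10.7%). In GMP against CLP 41 were higher (36.3%, against 28.3%) and 12 lower (10.6%, against 14.7%). In GMP against CMP 26 were higher (23.0%, against 20.3%) and 21 lower (18.6%, against 11.5%), and in CMP against CLP 21 were higher (18.6%, against 11.9%) and 11 lower (9.73%, against 11.8%). In CLP against HSC only Idh3b was called, with a difference of -0.63 ± 0.13 (SE, adjusted p = 0.0096).

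The pentose phosphate path draws sugar off for NADPH and nucleotides. Of its 7 measured genes, 6 were higher in wild-type GMP than in HSC and 1 lower, where 24.6% and 13.5% of all genes were. Pgd, its phosphogluconate dehydrogenase, rose by 2.04 ± 0.18 (SE, adjusted p = 4.73e-12, limma). Of 18 further citrate cycle and shuttle genes 7 were higher and none lower in GMP than in HSC, led by Idh1, the cytosolic isocitrate dehydrogenase, by 2.18 ± 0.26 (SE, adjusted p = 5.64e-09). Among 8 further genes of pyruvate entry, 1 was higher and 1 lower. Both counts stand beside the same 24.6% and 13.5% of all genes.

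Pyruvate kinases, the last step of glycolysis, differed by isozyme between the myeloid progenitors. Pkm, the form of most tissues, averaged 9.62 in wild-type GMP and 6.60 in CMP, a difference of 3.01 ± 0.38 (SE, adjusted p = 3.58e-08, limma). Pklr, the liver and red-cell form, averaged 5.18 in GMP and 8.26 in CMP, a difference of -3.07 ± 0.35 (SE, adjusted p = 2.88e-09). Minpp1, a phosphatase with a side activity on the red-cell metabolite 2,3-bisphosphoglycerate, had a difference of -3.03 ± 0.35 (SE, adjusted p = 2.87e-09). Of the 23 further glycolytic genes, 7 were higher and 5 lower in GMP than in CMP, against 20.3% and 11.5% of all genes. The CMP and erythroid-megakaryocyte markers given above were higher in CMP, and their part was not tested.

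The counts of the remaining lists in GMP against HSC stand beside 24.6% of all genes higher and 13.5% lower, and those in CMP against HSC beside 11.7% and 10.7%. Of 22 hypoxia-response genes, 6 were higher and 2 lower in wild-type GMP than in HSC, and 1 higher and 4 lower in CMP than in HSC. Egln3, an oxygen-sensing prolyl hydroxylase, averaged 8.76 in GMP, 7.26 in HSC and 5.51 in CMP, and differed by 3.26 ± 0.31 (SE) between GMP and CMP (adjusted p = 3.24e-11, limma). Among 15 energy regulators 4 were higher and 4 lower in GMP than in HSC. Txnip, an inhibitor of glucose uptake, had a difference of -3.50 ± 0.29 (SE, adjusted p = 7.16e-13). Mycn, a Myc-family factor that is also on the list of stem-cell markers, averaged 8.09 in HSC, 6.34 in CMP and 4.13, below background, in GMP. Of 8 glycogen genes 3 were higher and 1 lower in GMP than in HSC; of 8 further transporters and hexokinases 2 were higher and none lower, and of 4 further gluconeogenic genes 3 were higher.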

How the data were processed

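Total RNA of sorted bone marrow cells was amplified by a 2-cycle labelling reaction and hybridised to Affymetrix arrays, per the labels' protocols. The authors deposited linear intensity values made with RMA, per the submitters' processing notes; no source used here gives its version or says if the arrays were normalised in 1 set. The array files hold 45101 probe sets, of which 34945 outside the 64 controls have 1 gene in the platform annotation. Values were taken to log2, the arrays of a CMP replicate were averaged, and each gene was read from its brightest probe set (by mean log2 value across the 51 arrays) (probe sets shared by several transcripts can be among them). Genotypes were compared within each population, and populations and interactions in 1 model of 8 groups, with limma 3.58.1 (R 4.3.3; lmFit, eBayes with trend). Arrays give no read depth, so their number limits the precision. The fits were tested on simulated data. The genes listed and the lists of other genes were chosen with earlier results of these data known. Full values are given for members called between genotypes, the widest genotype differences (up to 2 per direction) and the widest called wild-type contrasts (up to 4 per direction) above background, plus members with non-overlapping replicates; other-list genes were named up to 2 per direction. Alternatives covered normalisation, probe-set choice, filters, the model, CMP runs, covariates, a replicate block and leaving out each replicate.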

Additional observations from a re-analysis of the deposited data

Results flagged for a closer look

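Single replicates lay far from the others of their group in 25 of 288 combinations of gene and group (8.68%), by a gap to the nearest replicate that took up more of the group's range than Dixon's 95% critical value; chance gives about 1 in 20. Values are log2 RMA intensities, and their causes were not tested. The replicates that lay low were wild-type GMP replicate 1 for Hk2 (5.631), Mll-AF9 GMP replicate 2 for Pfkl (5.183), Mll-AF9 CLP replicate 3 for Pfkp (6.173) and wild-type GMP replicate 1 for Aldoa (10.359). Others low were Mll-AF9 GMP replicate 2 for Aldoa (10.229), wild-type CLP replicate 5 for Dlat (6.55), Mll-AF9 HSC replicate 5 for Cs (10.532) and Mll-AF9 CLP replicate 3 for Aco1 (5.778). Others low were wild-type GMP replicate 1 for Ogdh (5.147), Mll-AF9 HSC replicate 3 for Ogdh (5.77), wild-type CLP replicate 6 for Dlst (6.752) and wild-type GMP replicate 1 for Sucla2 (9.17). Others low were wild-type HSC replicate 1 for Fh1 (8.794), wild-type HSC replicate 1 for Mdh1 (10.377), Mll-AF9 CMP replicate 1 for Mdh1 (10.298) and Mll-AF9 HSC replicate 2 for Mdh1 (10.297). The replicates that lay high were wild-type CLP replicate 7 for Pfkp (8.386), wild-type CMP replicate 5 for Pgk1 (11.612), Mll-AF9 HSC replicate 2 for Eno2 (4.652) and Mll-AF9 CMP replicate 3 for Ldha (10.543). Others high were wild-type HSC replicate 2 for Fbp1 (8.171), Mll-AF9 HSC replicate 5 for Fbp1 (10.825), Mll-AF9 CMP replicate 3 for Pck2 (8.592) and wild-type CLP replicate 6 for Pcx (5.997). Others high were Mll-AF9 CLP replicate 4 for Fh1 (10.345). Wild-type GMP replicate 1 accounted for 4 of the 25 and also had the largest 3' minus 5' control difference of the GMP samples, 4.70. The Fbp1 values named for HSC lie in both genotypes, and without Mll-AF9 HSC replicate 5 the Fbp1 difference in HSC was 1.04 (adjusted p = 0.27, limma).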

How the results depend on the processing

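The call of Fbp1 in GMP was the least stable: the count of members higher in Mll-AF9 GMP fell from 1 to 0 with quantile normalisation, the mean of all probe sets, the probe set of largest variance, only genes above background, no trend, 1 model of 8 groups and the Y-linked covariate (adjusted p = 0.354, the highest of these), and was 0 to 1 with each replicate left out. The count lower in GMP became 1 with array weights (Dlat, -0.63) and against female-like wild-type replicates (Hk1, -0.82; chosen after seeing the data). In CMP the count higher became 0 in 1 model of 8 groups (Fbp1 2.43, adjusted p = 0.0692), 2 with array weights and with the first run alone (Ldhb added), and 3 with every run and a random effect of replicate (Ldhb and Hk3 added); leaving out each replicate gave 1 to 2. In CLP it became 1 with the probe set of largest variance (Idh3a) and with array weights (Hk3). The members lower in wild-type GMP than CMP numbered 9 with only these groups, and 3 to 5 with each replicate left out. Signs turned in 4 uncalled differences: Pgk1 in CMP (0.096, largest variance), Hk3 in GMP (-0.30 to 0.004 on leaving out replicates) and Ldhb in CLP (-0.26 with the Y-linked covariate, -0.38 against female-like replicates). The causes were not tested. Of 428 alternative counts 395 stayed within 1.5 times, and of 1423 alternative differences 1374 kept direction and side of the threshold. Scalings moved the median of all genes by at most 0.057.

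Deviations of same-numbered replicates had correlations from -0.292 to 0.188. Their mean was 0.104 in CMP, against -0.027 for other pairs, and negative in GMP, CLP and HSC. The 4 to 7 pairs per population are too few to exclude pairing, so whether the numbers pair samples is not known. With the replicate block the count higher was 0 in GMP (Fbp1 1.79, adjusted p = 0.122) and 3 in CMP (Fbp1, Ldhb and Hk3), and the count lower in wild-type CLP than HSC was 1.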
